A study of Mus musculus with 30 samples.

Results

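The 10 granule and cytosol genes of neutrophils described here were followed over 30 arrays of mouse quadriceps muscle. They are S100a8, S100a9, Ngp, Camp, Ltf, Lcn2, Elane, Mpo, Prtn3 and Ctsg. All 10 had 1 entry each among the 16475 entries of the expression table. The genes were chosen by their intensities on these same arrays, with earlier results of the data known, because they vary together across the arrays. That they vary together is therefore a description and not a tested finding. The arrays fell into 3 groups of 10, with 1 mouse on each array. All animals were male mice whose strain the labels write as C56BL/6J, and all had eaten a low fat (LF) run-in diet for 3 weeks, starting at 9 weeks of age. HF day 56 mice then ate a high fat (HF) diet for 56 days and were killed at 20 weeks of age. LF day 56 mice stayed on the low fat diet for the same 56 days and were also killed at 20 weeks. LF day 0 mice were killed at the end of the run-in, at 12 weeks. Assignment to a diet was random, and the dissected quadriceps was snap-frozen. The labels report no genetic alteration and do not mention perfusion.

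Neutrophils build their granules in sequence while they mature in the bone marrow. Promyelocytes make the azurophil granules and their proteases, myelocytes and metamyelocytes make the specific granules, and the cytosolic pair S100A8 and S100A9 accumulates in the later stages. The messages for most granule proteins are made before the cell enters the blood, and azurophil messages are known to decline before those of the specific granules do. Resting muscle fibres are not known for any of these messages.

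The tissue label was set against the genes of muscle fibres first. Acta1, skeletal muscle actin, ran from 26777.9 to 30599.0 on the 30 arrays, and all 8 muscle fibre genes listed, Ckm, Tnnt3 and Actn3 among them, were above an intensity of 20 on every array. None of them passed in any comparison. Their summed intensity was 138652.9 to 150935.0 on HF day 56 arrays, 140212.6 to 151481.8 on LF day 56 arrays and 137912.3 to 148043.0 on LF day 0 arrays. Intensities are the authors' linear values, and the array medians lay between 8.9 and 9.4. Between 6334 and 6563 entries per array exceeded an intensity of 20, a level used here to mark signal clear of the array's lowest values. Control probes gave 1 technical split: the signal of spike-in transcripts at their 5' against their 3' end was higher on 9 arrays, 3 in each group, than on the other 21. These 2 sets are called labelling sets here, from spike-in signal alone, and the labels name no batch. S100a8 was high on 5 of the 9 and on 12 of the 21. The set of 21 had equally many high arrays in each group, and the set of 9 did not. In the set of 9, S100a8 was 768.5 to 3545.7 on LF day 0 arrays and 6.2 to 8.1 on LF day 56 arrays. On its HF day 56 arrays S100a8 was 6.5, 983.0 and 585.6. The uneven split of high arrays between groups thus lies in the set of 9.

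Calprotectin and the granule genes lay at the lowest signal together on the same arrays, and on the others between 3 and 10 of the genes stood clear of it. S100a8 had no value between 11.9 and 342.6 on any array, the widest gap in its sorted values, and 17 arrays lay above that gap and 13 below it. Above it were 6 of 10 HF day 56 arrays, 4 of 10 LF day 56 arrays and 7 of 10 LF day 0 arrays. On the 13 arrays below the gap, 0 of the 10 genes exceeded an intensity of 20. On the 17 arrays above it at least 3 genes did so, and on 1 array, HF day 56 replicate 2, all 10 did. The 2 sides of this gap were defined from S100a8 itself, so they serve here to describe co-occurrence and are not compared by any test. In a bulk muscle sample, fewer cells of a type and less RNA per cell cannot be told apart.

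**Figure D1:**
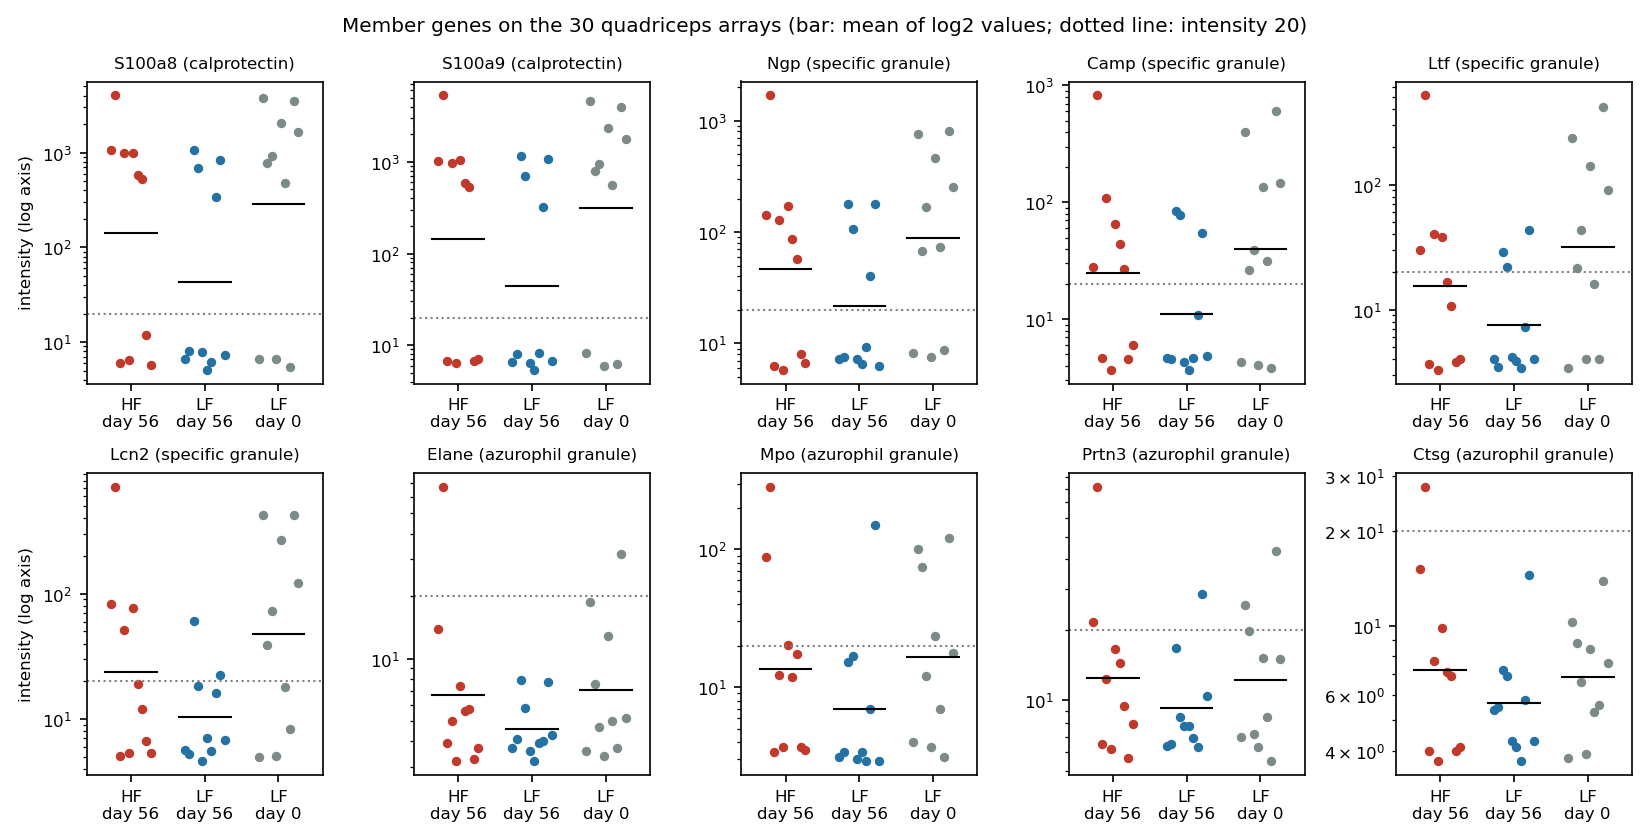
Intensity of each of the 10 genes on a log axis, 1 point per array, for HF day 56, LF day 56 and LF day 0 (10 arrays each); the black bar is the mean of the log2 values and the dotted line an intensity of 20. S100a8 and S100a9 form an upper and a lower cloud in every group, with 6 HF day 56, 4 LF day 56 and 7 LF day 0 arrays in the upper one, while Elane and Ctsg stay near or under 20 on nearly all arrays.

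S100a8 and S100a9 encode the 2 subunits of calprotectin, the calcium- and zinc-binding protein that fills the neutrophil cytosol, and they lie next to each other on chromosome 3. S100a8 had a lowest, median and highest intensity of 5.7, 556 and 4031.3 on HF day 56 arrays, of 5.1, 7.95 and 1075.4 on LF day 56 arrays and of 5.5, 846 and 3809.0 on LF day 0 arrays. S100a9 had 6.4, 561 and 5314.6 on HF day 56 arrays, 5.4, 8.15 and 1161.8 on LF day 56 arrays and 5.9, 872 and 4572.2 on LF day 0 arrays. The ranges of the 3 groups overlapped for both genes. The group medians mainly reflect the side of the gap on which most of a group's arrays fell. S100a9 had its own gap between 8.2 and 323.5, and it divided the arrays into the same 17 and 13. As deposited, 9 of 16475 entries (0.0546%) spanned 100-fold or more between the lowest and the highest array, and 6 of them were among these 10 genes, which were chosen for their variation. Their lowest values are under 20, so the size of such a fold is uncertain. The other 3 were Myh7 and Myl3, both of slow muscle fibres, and Chil3, which is described further on.

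Ngp, Camp, Ltf and Lcn2 encode proteins of the specific granules. Neutrophilic granule protein (Ngp) had 5.8, 72.0 and 1691.5 as its lowest, median and highest intensity on HF day 56 arrays, 6.3, 8.40 and 179.2 on LF day 56 arrays and 7.5, 120.2 and 806.7 on LF day 0 arrays. Camp, the precursor of the antimicrobial peptide cathelicidin, had 3.7, 27.40 and 824.0 on HF day 56 arrays, 3.7, 4.80 and 84.3 on LF day 56 arrays and 3.8, 35.45 and 606.9 on LF day 0 arrays. For both genes every array above the S100a8 gap was higher than every array below it. Ltf, lactoferrin, which binds iron, had 3.3, 13.55 and 519.7 on HF day 56 arrays, 3.4, 4.10 and 43.4 on LF day 56 arrays and 3.4, 32.40 and 419.6 on LF day 0 arrays. Lcn2, lipocalin 2, which binds bacterial iron carriers, had 5.1, 15.55 and 713.9 on HF day 56 arrays, 4.6, 6.95 and 61.0 on LF day 56 arrays and 5.0, 55.85 and 427.9 on LF day 0 arrays. Ltf and Lcn2 also lay higher on each of the 17 arrays than on any of the 13. An intensity of 20 was exceeded by Ngp on all 17, by Camp on 16, by Ltf on 13 and by Lcn2 on 12. In each of the 4 genes the LF day 56 arrays had the lowest maximum of the 3 groups.

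Elane, Mpo, Prtn3 and Ctsg belong to the azurophil granules. Mpo, myeloperoxidase, which makes hypochlorous acid, had 3.4, 12.05 and 284.4 as its lowest, median and highest intensity on HF day 56 arrays, 2.9, 3.40 and 151.1 on LF day 56 arrays and 3.1, 14.90 and 120.0 on LF day 0 arrays. It exceeded 20 on 8 of the 17 arrays above the S100a8 gap, and even its lowest value there, 6.9, was over its highest below the gap, 4.0. The other 3 are serine proteases. Elane, neutrophil elastase, had 3.2, 5.30 and 67.2 on HF day 56 arrays, 3.2, 4.05 and 7.9 on LF day 56 arrays and 3.4, 5.10 and 31.8 on LF day 0 arrays. Prtn3, proteinase 3, had 5.7, 10.95 and 81.6 on HF day 56 arrays, 6.3, 7.80 and 28.4 on LF day 56 arrays and 5.5, 11.75 and 43.3 on LF day 0 arrays. Ctsg, cathepsin G, had 3.7, 7.0 and 27.7 on HF day 56 arrays, 3.7, 5.45 and 14.5 on LF day 56 arrays and 3.8, 7.10 and 13.9 on LF day 0 arrays. Elane exceeded 20 on 2 arrays, Prtn3 on 5 and Ctsg on 1, so most of their values lie where an array resolves little. Elane and Ctsg were each over all 13 lower arrays on 16 of the 17 arrays, and Prtn3 on 12. No level is compared between genes, since different probes respond differently.

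**Figure D2:**
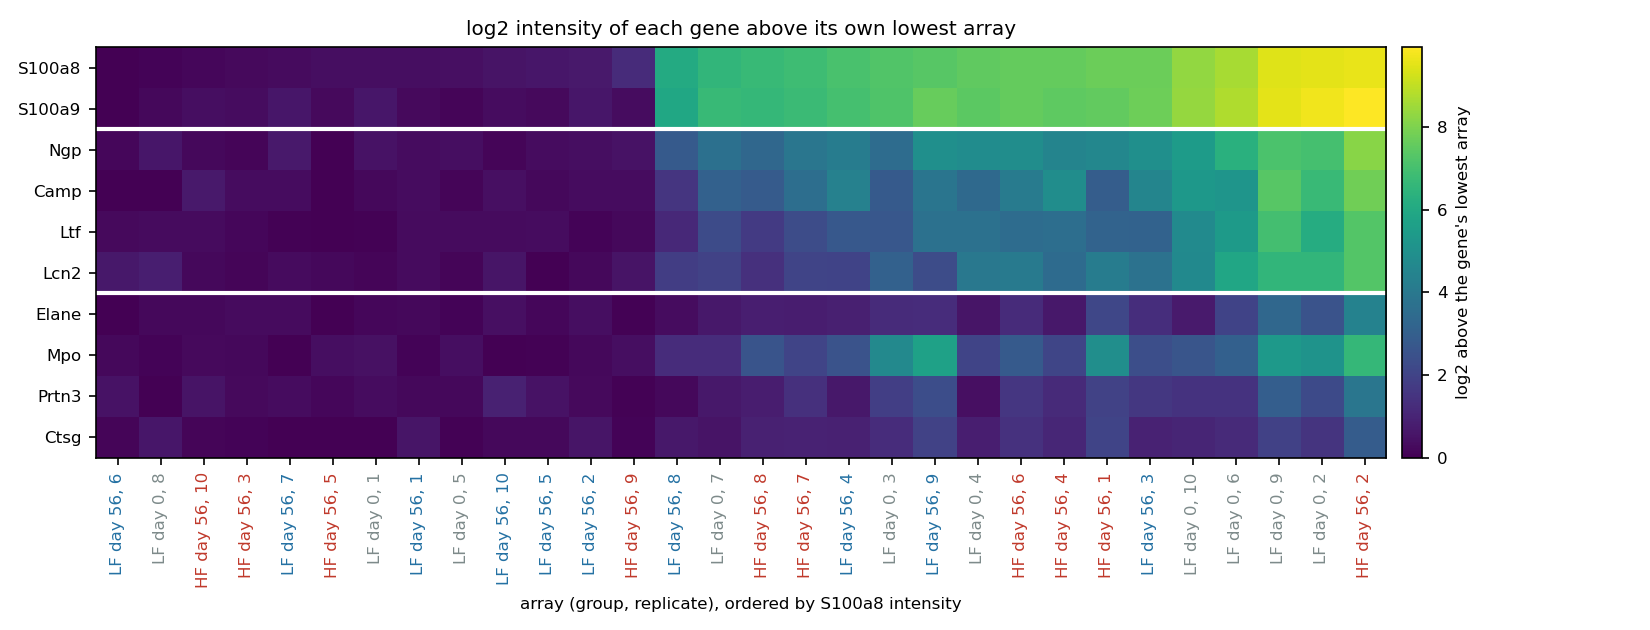
Log2 intensity of each gene above its own lowest array (colour), with the 30 arrays in order of S100a8 from left to right and white lines between calprotectin, specific granule and azurophil granule genes. The 13 arrays on the left are dark in all 10 genes, and Mpo is bright on some arrays in the middle of the upper 17 where Ltf and Camp are not.

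Promoter sequences are shown for 2 azurophil and 2 specific granule genes, since the azurophil and the other genes are described below as 2 blocks. All 10 members had a promoter in the RefSeq table (build GRCm38.p6), and the 250 bases before each gene's start were searched on both strands for 4 short motifs. Capitals mark a PU.1-like AGGAAGT, a MYB-like AACGG or a C/EBP-like TTNNGNAA, on either strand; no 2 of these matches overlapped in the sequences shown. Elane and Prtn3 are direct neighbours on chromosome 10, at chr10:79886062-79886311 and chr10:79879417-79879666, both on the plus strand. Ngp and Ltf are on chromosome 9, at chr9:110419558-110419807 and chr9:111019042-111019291, both on the plus strand. Each sequence runs 5′ to 3′ along the gene and ends just before its start.
Elane: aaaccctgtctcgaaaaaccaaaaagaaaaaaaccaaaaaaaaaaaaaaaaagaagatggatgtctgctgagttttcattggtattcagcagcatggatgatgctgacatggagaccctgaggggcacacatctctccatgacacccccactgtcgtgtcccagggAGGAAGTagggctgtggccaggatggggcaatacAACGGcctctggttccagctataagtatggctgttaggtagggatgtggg
Prtn3: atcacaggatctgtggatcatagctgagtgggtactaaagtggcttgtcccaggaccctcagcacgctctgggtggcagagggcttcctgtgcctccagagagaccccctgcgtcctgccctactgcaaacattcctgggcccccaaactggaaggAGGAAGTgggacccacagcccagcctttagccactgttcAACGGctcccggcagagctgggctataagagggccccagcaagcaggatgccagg
Ngp: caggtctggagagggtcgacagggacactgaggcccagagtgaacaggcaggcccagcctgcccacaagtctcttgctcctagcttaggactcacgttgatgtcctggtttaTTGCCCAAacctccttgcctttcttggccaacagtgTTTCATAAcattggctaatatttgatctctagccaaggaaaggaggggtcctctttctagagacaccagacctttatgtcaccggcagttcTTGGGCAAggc
Ltf: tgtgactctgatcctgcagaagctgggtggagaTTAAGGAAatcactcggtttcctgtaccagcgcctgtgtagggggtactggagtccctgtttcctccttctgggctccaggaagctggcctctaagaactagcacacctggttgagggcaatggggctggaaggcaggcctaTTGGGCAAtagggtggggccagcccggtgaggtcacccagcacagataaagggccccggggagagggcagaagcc

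AGGAAGT was found before all 4 azurophil genes and before S100a8, and before 0 of the 4 specific granule genes, against 7.69% of 32851 promoters of the same length. It lay at -84 to -78 from the start of Elane and at -94 to -88 from that of Prtn3, and farther out before Mpo, at -223 to -217, and Ctsg, at -206 to -200. AACGG followed it in Elane at -50 to -46 and in Prtn3 at -55 to -51, was in no other member, and was in 14.5% of promoters. TTNNGNAA, which is short of fixed letters and was in 36.8% of promoters, was found before S100a8, S100a9, Ngp, Ltf and Lcn2, and before 0 of the 4 azurophil genes. The same 8 letters, TTGGGCAA, lay at -11 to -4 in Ngp and at -75 to -68 in Ltf. A TATAAA was found before S100a8 and Ctsg and in 12.4% of promoters. These are matches of letters in a fixed window, chosen with the gene groups known, and no binding was measured.

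The members were described in 2 blocks set by granule class, calprotectin and specific granule genes in 1 and azurophil genes in the other. Over the 17 arrays above the S100a8 gap, the Pearson r of log2 intensity was positive in all 45 pairs of genes, with a median of 0.85 and a range of 0.58 to 0.99. The median was 0.59 without the 3 arrays highest in S100a8. Among calprotectin and specific granule genes (15 pairs) the median was 0.95, and the lowest r was 0.85. Among the 4 azurophil genes (6 pairs) the median was 0.90, with a range of 0.83 to 0.92. Between the 2 blocks (24 pairs) the median was 0.72, with a range of 0.58 to 0.87, so genes of the same block were, on median, closer to each other than genes of different blocks. S100a8 and S100a9 formed the closest pair, at 0.99, and Camp and Mpo the loosest, at 0.58. Elane lay close to both blocks. Its r was 0.87 with Ngp, 0.86 with S100a9 and 0.85 with S100a8, against 0.83 with Mpo, 0.87 with Ctsg and 0.90 with Prtn3. Below the gap the median r was -0.01 over 13 arrays, and 22 of 45 pairs were above 0, so no joint variation was visible in values that lay near the array's lowest signal. All genes of an array share its RNA sample, labelling and normalization. No r was taken over all 30 arrays for a pair of members, because the arrays form 2 separate clusters.

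**Figure D3:**
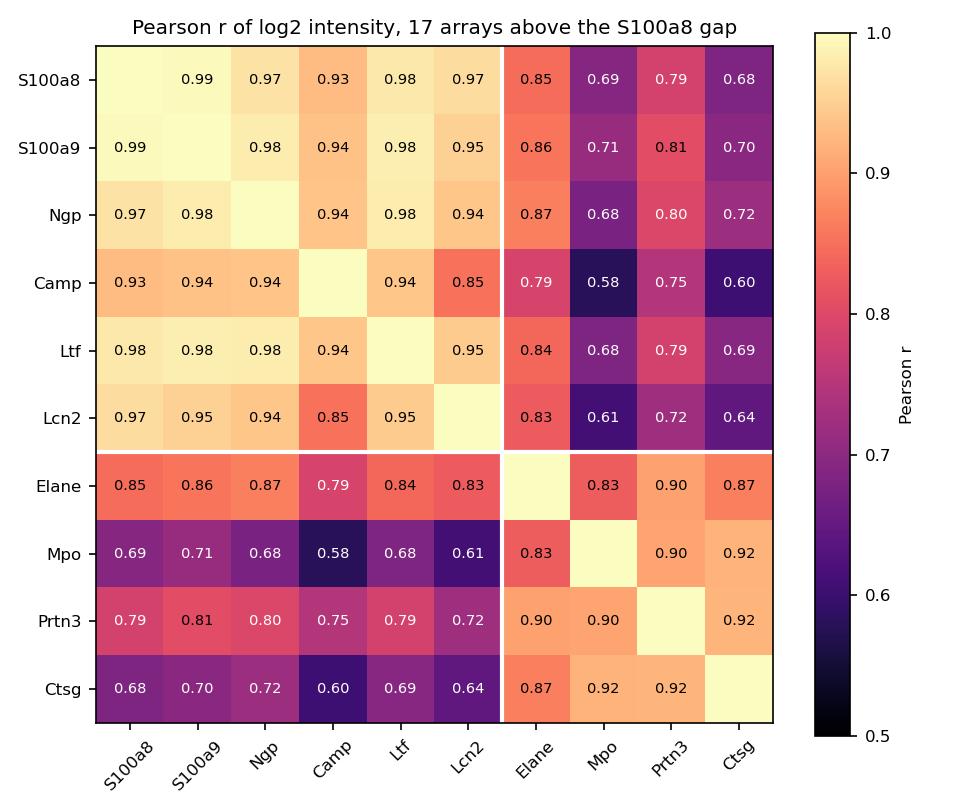
Pearson r of log2 intensity for each pair of the 10 genes over the 17 arrays above the S100a8 gap (colour and number), with white lines between the calprotectin and specific granule genes and the azurophil genes. The upper left block holds values from 0.85 to 0.99, the lower right block from 0.83 to 0.92, and the off-diagonal block from 0.58 to 0.87.

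The 2 blocks separated further once the 3 arrays highest in S100a8 were left out, an alternative chosen after seeing the data. Those arrays were HF day 56 replicate 2 and LF day 0 replicates 2 and 9. Over the other 14, the median r was 0.88 among calprotectin and specific granule genes and 0.78 among azurophil genes, and it was 0.39 (range 0.03 to 0.60) between them. With log2 S100a8 taken out of every gene by a straight line over the 17 arrays, also chosen after seeing the data, the median r was 0.77 (range 0.63 to 0.86) among azurophil genes. It was 0.34 (range -0.48 to 0.66) among S100a9 and the specific granule genes, and 0.10 (range -0.30 to 0.40) between these and the azurophil genes. S100a8 belongs to the calprotectin and specific granule block, so the line takes out much of what that block shares. These medians therefore cannot rank the 2 blocks. Among azurophil genes r stayed above 0 in all 6 pairs once S100a8 was taken out. Of these genes, Elane exceeded 20 on only 2, Prtn3 on 5 and Ctsg on 1 of the 17 arrays. The closest pair was then Prtn3 and Ctsg, at 0.86, and the loosest Elane and Mpo, at 0.63.

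Mpo was 151.1 on LF day 56 replicate 9, where S100a8 was 841.2, and 12.0 on LF day 0 replicate 4, where S100a8 was 923.8. In the same way Mpo was 87.8 on HF day 56 replicate 1 and 12.2 on HF day 56 replicate 4, 2 arrays on which S100a8 was 1067.0 and 994.5. Arrays alike in S100a8 thus differed widely in Mpo. Measured from the line of Mpo on S100a8, LF day 56 replicate 9 lay 2.75 above it on the log2 scale, LF day 0 replicate 3 lay 1.88 above, HF day 56 replicate 1 lay 1.60 above and HF day 56 replicate 2 lay 1.20 above. These 4 arrays came from all 3 groups. On LF day 56 replicate 9, Prtn3 also lay 1.07 and Ctsg 0.83 above their own lines, whereas Elane lay 0.14 above. On LF day 0 replicate 10, at the other end, Mpo lay at -1.39, Elane at -1.28, Prtn3 at -0.54 and Ctsg at -0.49. The specific granule genes differed between these arrays: on HF day 56 replicate 2 all 4 lay above their lines, from 0.27 in Lcn2 to 0.68 in Ngp, whereas on LF day 56 replicate 9 Lcn2 lay at -0.90 and Ltf at 0.54. The spread around the line (residual SD, log2) was 1.24 for Mpo, 0.61 for both Elane and Prtn3, and 0.46 for Ctsg, against 0.39 for Ltf, 0.50 for Lcn2, 0.36 for Ngp, 0.64 for Camp and 0.12 for S100a9.

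**Figure D4:**
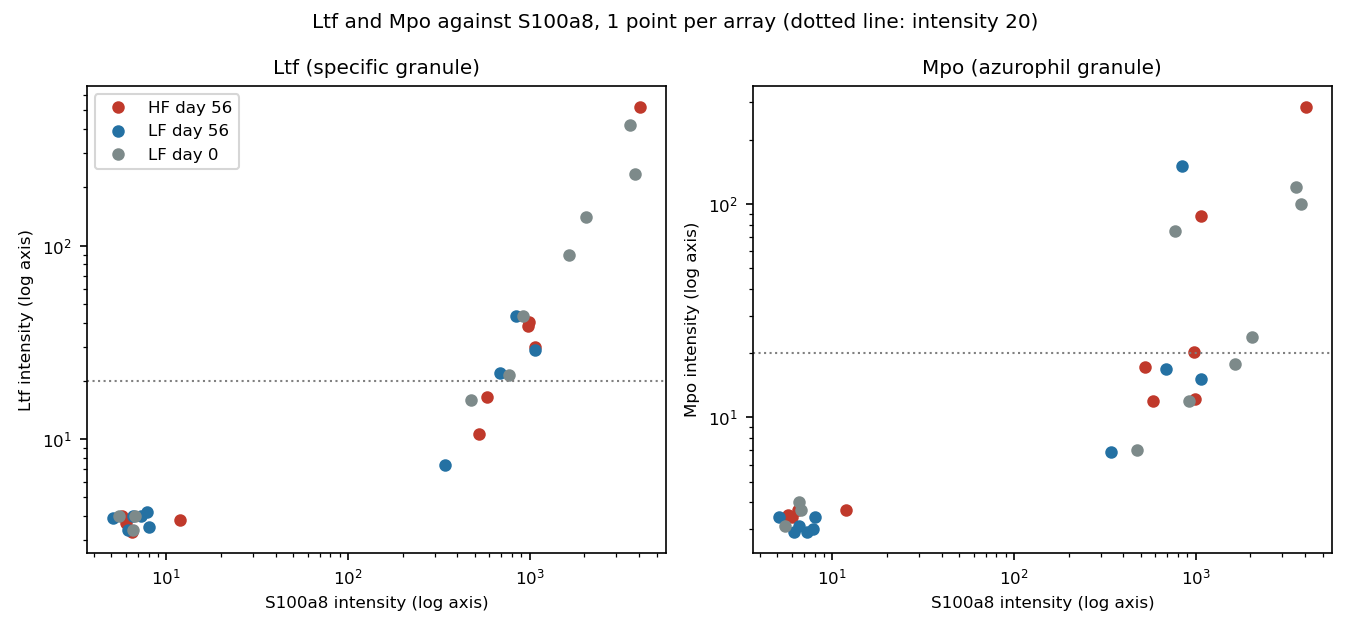
Intensity of Ltf (left) and Mpo (right) against S100a8 on log axes, 1 point per array coloured by group, with a dotted line at an intensity of 20. Ltf follows S100a8 closely on the 17 upper arrays, while Mpo at S100a8 intensities between 768.5 and 1067.0 ranges from 12.0 to 151.1.

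Over the 17 upper arrays the specific granule genes had steeper fitted slopes on S100a8 than S100a9 had. Different probes respond differently, and how far this shapes the slopes was not tested. Ltf exceeded 20 on 13 and Lcn2 on 12 of these arrays. For each doubling of S100a8, S100a9 changed by 1.08, Ngp by 1.35, Camp by 1.50, Ltf by 1.65 and Lcn2 by 1.69 on the log2 scale. Slopes of Mpo (1.09), Elane (0.88), Prtn3 (0.71) and Ctsg (0.39) are less certain, since values near the lowest signal of an array understate a gene's range. LF day 56 replicate 8, the lowest of the 17 arrays with S100a8 at 342.6, had Ngp at 40.4, Camp at 10.8, Ltf at 7.3 and Lcn2 at 16.2. HF day 56 replicate 2, the highest with S100a8 at 4031.3, had Ngp at 1691.5, Camp at 824.0, Ltf at 519.7 and Lcn2 at 713.9.

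The groups were compared next, for the diet (HF day 56 against LF day 56) and for time on the low fat diet (LF day 56 against LF day 0). The third comparison, HF day 56 against LF day 0, combines diet and age. The 3 comparisons share arrays and so are not independent. Tests are limma's on log2 intensity, with Benjamini-Hochberg adjustment over 16475 entries, and differences are given as log2 ± SE with 10 arrays in each group.

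After 56 days of high fat feeding all 10 genes averaged higher than after 56 days of low fat feeding, and no difference passed the test. S100a8 averaged 7.15 ± 3.80 (log2, SD, n = 10) on HF day 56 arrays and 5.42 ± 3.46 on LF day 56 arrays, a difference of 1.74 ± 1.56 with a 95% interval from -1.45 to 4.92. Lcn2 averaged 4.56 ± 2.35 on HF day 56 arrays and 3.38 ± 1.22 on LF day 56 arrays, a difference of 1.18 ± 0.88. Both SDs exceeded the difference of the means, since each group held arrays from both sides of the S100a8 gap. Differences of the other genes ran from 0.34 ± 0.31 in Ctsg to 1.69 ± 1.58 in S100a9. Each of the 10 genes had 6 of 10 HF day 56 arrays above the LF day 56 mean. The median over the 10 genes was 1.08, against 0.0029 over all entries. Because the 10 genes were high on the same arrays, they do not count as separate results in any of the 3 comparisons. In limma 0 of 10 genes passed (adjusted p = 0.998 for each), where 4 entries in all did (0.0243%, all 4 higher on HF day 56 arrays and 0% lower). At an unadjusted p below 0.05 it was also 0 of 10, where 5.1% of entries were. Without HF day 56 replicate 2 the median over the genes was 0.52, and it was 0.60 in the labelling set of 21 arrays and 1.79 in the set of 9.

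On the low fat diet all 10 genes averaged lower on day 56 than on day 0, and again none passed. Lcn2 averaged 3.38 ± 1.22 on LF day 56 arrays and 5.59 ± 2.54 on LF day 0 arrays, a difference of -2.20 ± 0.88 (95% interval -4.01 to -0.40, limma adjusted p = 0.354). Ltf averaged 2.92 ± 1.43 on LF day 56 arrays and 4.98 ± 2.56 on LF day 0 arrays, a difference of -2.06 ± 0.90 (95% interval -3.89 to -0.23, limma adjusted p = 0.410). In both genes 9 of 10 LF day 56 arrays lay below the LF day 0 mean. S100a8 differed by -2.74 ± 1.56 (limma adjusted p = 0.577) and S100a9 by -2.83 ± 1.58, Ngp by -2.05 ± 1.05 and Camp by -1.84 ± 1.0. The azurophil genes differed by -1.26 ± 0.84 in Mpo, -0.63 ± 0.43 in Elane, -0.40 ± 0.41 in Prtn3 and -0.27 ± 0.31 in Ctsg. In the labelling set of 21 arrays the differences of Mpo (0.042), Prtn3 (0.11) and Ctsg (0.12) had the opposite direction, and most values of Elane, Prtn3 and Ctsg were under 20. The median over the 10 genes was -1.95, against 0.00089 over all entries. In limma 0 of 10 passed, where 0.85% of all entries did (0.225% higher and 0.625% lower). At an unadjusted p below 0.05 there were 2 of 10, Lcn2 (0.0185) and Ltf (0.0286), where 10.1% of entries were. The 2 labelling sets differed here: the median over the genes was -0.55 in the set of 21 arrays and -4.79 in the set of 9, where each group has 3 arrays, and 0 of 10 genes passed in either.

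Between HF day 56 and LF day 0 arrays no gene passed, and no difference was more than a little over its SE. Of the 10 genes, 8 averaged lower, from Ltf with -1.04 ± 0.90 and S100a9 with -1.14 ± 1.58 to Elane with -0.09 ± 0.43, and 2 averaged higher, Ctsg with 0.07 ± 0.31 and Prtn3 with 0.03 ± 0.41. The median was -0.80, against 0.0024 over all entries. In limma 0 of 10 genes passed, where 1.59% of entries did (0.783% higher and 0.807% lower), and 0 of 10 had an unadjusted p below 0.05, where 11% did. In the set of 21 arrays the median was 0.0945 and in the set of 9 it was -2.68.

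**Figure D5:**
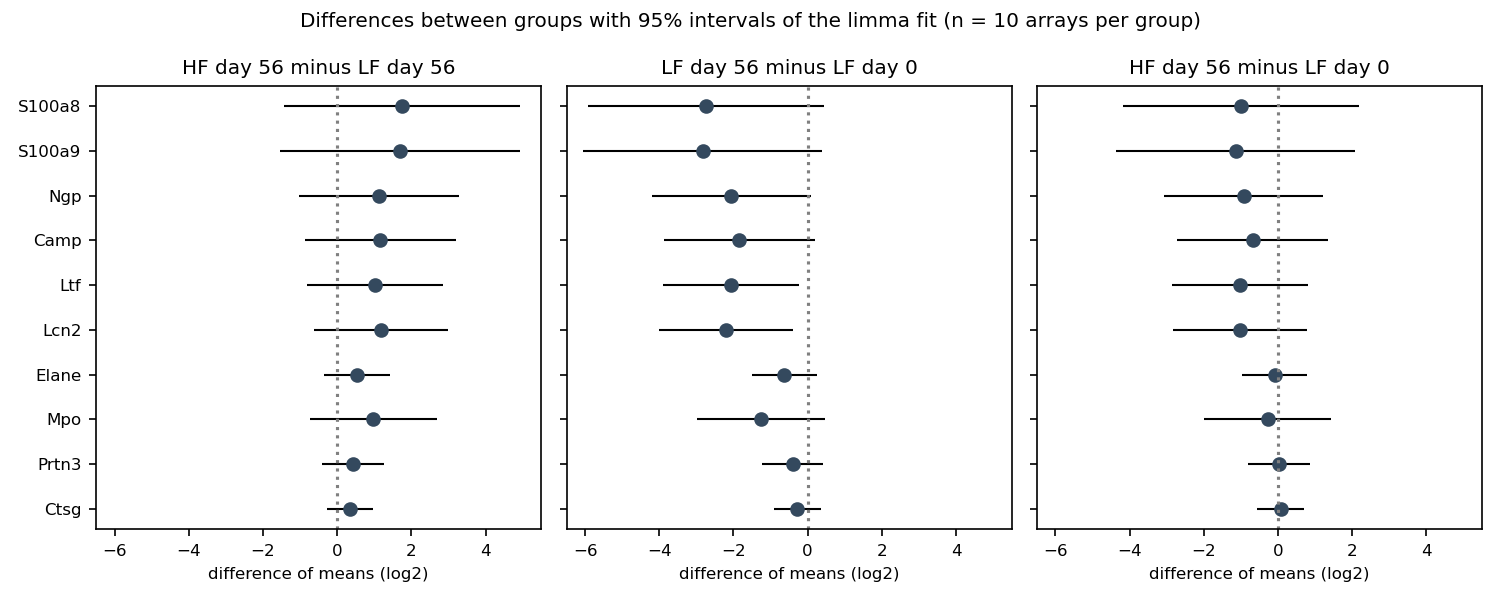
Difference of group means (log2, points) with the 95% interval of the limma fit (lines) for each gene in the 3 comparisons, 10 arrays per group. All points lie right of 0 for HF day 56 minus LF day 56 and left of 0 for LF day 56 minus LF day 0, and in LF day 56 minus LF day 0 only the intervals of Ltf and Lcn2 leave out 0.

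Genes outside the 10 that followed the same arrays were ranked by their Spearman rho with the mean log2 intensity of the 10 over 30 arrays, a description only, since the arrays form 2 clusters. Among 4003 entries that exceeded 100 on at least 5 arrays the median rho was -0.05. The highest was Chil3 at 0.89, a chitinase-like protein of mouse specific granules and macrophages that ran from 2.5 to 413.0. Chil3 exceeded 20 on 14 of the 17 upper arrays and 0 of the 13 lower ones. Ctse, the aspartic protease cathepsin E, had a rho of 0.85 and exceeded 20 on all 17 and on 0 of the 13. The rest of the first 15 were present on every array and moved less. Gpx1 (0.86), a peroxide-reducing enzyme, ran from 869.3 to 1724.6. Others were Comp (0.81) and Chad (0.75), both on the cartilage list described below. Lyz2 (0.80), lysozyme of myeloid cells, and Car2 (0.79), a carbonic anhydrase, were also among them. With them came Ccnd3, Cd47 and Flna (0.79 each), Cyba (0.78), a subunit of the phagocyte oxidase, Fn1 (0.77), Srgn (0.76), Slc25a37 (0.75), a mitochondrial iron carrier, and Fam117a (0.74). Within the 17 upper arrays Chil3 kept an r of 0.94 with the mean of the members and Cyba one of 0.84, whereas Slc25a37 had 0.15. None of the 15 passed the limma test in any of the 3 comparisons.

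Other genes of the specific and gelatinase granules came with the members. Of 14 listed 13 were measured, and 7 exceeded 20 on some array. Of these, 5 did so on upper arrays only: Chil3, Mmp8 (neutrophil collagenase, up to 71.8), Cd177 (a surface protein of neutrophils, up to 38.5), Cybb (the catalytic subunit of the oxidase, up to 28.9) and Mmp9 (gelatinase B). The median rho of the 13 was 0.78. Of the 13, 4 had a rho under 0.40: Hdc (0.16), Adam8 (0.26), Hp (0.38) and Slc11a1 (0.398), of which only Hp, haptoglobin, exceeded 20, with a maximum of 514.2. Hp was the only one of the 13 called in any comparison: it rose by 1.66 ± 0.39 on HF day 56 arrays against LF day 0 arrays (limma adjusted p = 0.0168). In that comparison 1.59% of all entries passed. The summed intensity of the 13 was 127.7 to 917.8 on HF day 56 arrays, 146.9 to 278.3 on LF day 56 arrays and 140.2 to 656.3 on LF day 0 arrays.

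Of 10 other azurophil and promyelocyte genes 7 were measured, 3 never exceeded 20, and 0 passed in any comparison. The median rho of the 7 was 0.52, with a range of -0.0038 to 0.80. Ms4a3, a marker of granulocyte and monocyte progenitors, followed the members at a rho of 0.80 but reached only 9.3. Lyz2 and Srgn, at 0.80 and 0.76, never went below 311.9 and 353.9. Mgst1, a glutathione transferase that reached 1276.9, had a rho of 0.36, and Ctsc, the protease that activates the azurophil proteases, had a rho of 0.03. Of 22 genes of mature neutrophils 16 were measured, 13 never exceeded 20, and 0 passed. The median rho of the 16 was 0.50, with a range of -0.10 to 0.87. Wfdc21, an antimicrobial protein, reached 311.6 at a rho of 0.82 and exceeded 20 on all 17 upper and 3 of the 13 lower arrays. Ifitm6 reached 85.5 (rho 0.87), Stfa2l1 16.1 (rho 0.52), and the formyl peptide receptor Fpr2 reached 14.9 (rho 0.82). The chemokine receptor Cxcr2, with a rho of -0.10, and the growth factor receptor Csf3r, with 0.62 and a maximum of 15.8, never exceeded 20. Anxa1, which many cell types make, ran from 457.9 to 1114.0 with a rho of 0.74. The summed intensity of the 16 was 543.5 to 1605.3 on HF day 56 arrays, 587.4 to 856.5 on LF day 56 arrays and 605.5 to 1196.0 on LF day 0 arrays.

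Transcription factors of granulocytes were measured for 8 of 9 listed, and 0 passed. Myb, a factor of dividing progenitors, followed the members at a rho of 0.90, while its intensity never exceeded 9.1. Gfi1 had 0.46 and Spi1, which encodes PU.1, had 0.32, with a maximum of 8.1. Cebpa (0.17), Cebpb (0.00), Cebpd (0.18), Runx1 (-0.01) and Klf5 (0.08) had rho values near 0. Cebpb lay between 302.9 and 528.6 and Cebpd between 123.4 and 702.6, above 20 on all 30 arrays.

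Markers of other cells also moved with the members, and their part in the result was not tested. Of 15 red cell precursor genes 12 were measured, their median rho was 0.77, and all 5 that exceeded 20 did so on upper arrays only. Slc4a1, the anion exchanger of red cells, ran from 5.0 to 134.9 and Alas2, of haem synthesis in red cell precursors, from 9.5 to 84.8. Both exceeded 20 on all 17 upper arrays and 0 of the 13 lower ones. Hemgn, a nuclear protein of blood precursors, reached 92.8 and exceeded 20 on 12 upper arrays, and Rhag, a red cell membrane protein, reached 32.3 and did so on 2. The summed intensity of the 12 was 51.4 to 388.5 on HF day 56 arrays, 50.9 to 331.6 on LF day 56 arrays and 52.9 to 386.9 on LF day 0 arrays. Among the upper arrays, though, the median r of the 12 with the members' mean was 0.28, so red cell and granule genes came on the same arrays and did not track each other's level closely there. Proliferation genes gave a median rho of 0.80 over 12, of which 7 never exceeded 20. Rrm2 was above 20 on 15 and Mki67 on 12 of the 17, and both were so on 0 of the 13. Ube2c reached 30.9 and Top2a 26.8. Tpx2 did not follow the members, with a rho of -0.08, and it exceeded 20 on 0 upper and 2 lower arrays. Among the upper arrays the median r of the 12 with the members' mean was 0.50. The summed intensity of the 12 proliferation genes was 58.7 to 205.2 on HF day 56 arrays, 55.5 to 211.3 on LF day 56 arrays and 52.6 to 342.1 on LF day 0 arrays. Of 7 platelet genes measured of 8 listed, Ppbp exceeded 20 on 13 of the 17 and 0 of the 13 arrays, while Pf4 was above 20 on all 30 and Gp6 and Gp1bb on none, and the sum ran from 190.8 to 608.4 on HF day 56 arrays, 235.8 to 518.3 on LF day 56 arrays and 232.6 to 601.8 on LF day 0 arrays. None of the genes in these 3 lists passed in any comparison.

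Bone and cartilage genes were measured for 8 of 11 and 8 of 8. The median rho was 0.60 for bone and 0.62 for cartilage, with Phex (-0.19), Sp7 (0.098), Matn3 (-0.06) and Col9a1 (0.056) lowest. Acp5, an osteoclast phosphatase, had 0.56 and exceeded 20 on 17 upper and 12 lower arrays, and Alpl had 0.40. Ibsp, bone sialoprotein, and Col2a1, the main collagen of cartilage, had rho values of 0.82 and 0.81, and each exceeded 20 on 6 of the 17 upper and 0 of the 13 lower arrays. Only 3 of the 8 cartilage genes ever exceeded 20: Col2a1, Comp and Chad. Comp and Chad did so on all 17 upper and all 13 lower arrays, with maxima of 231.3 and 360.4, and the cartilage sum below includes both. On LF day 56 against LF day 0 arrays Ibsp fell by 2.08 ± 0.49 (limma adjusted p = 0.0312), Col2a1 fell by 1.95 ± 0.45 (0.0234) and Ctsk, the collagen-degrading protease of osteoclasts, fell by 0.67 ± 0.17 (0.0447). Ctsk also fell by 0.64 ± 0.17 on HF day 56 against LF day 0 arrays (limma adjusted p = 0.0407). No other gene of the 2 lists passed. Over all entries 0.85% passed for LF day 56 against LF day 0 arrays and 1.59% for HF day 56 against LF day 0 arrays. Ibsp and Col2a1 had median intensities of 7.0 and 8.0, under 20, so the size of their falls is uncertain. The summed bone intensity was 70.7 to 209.0 on HF day 56 arrays, 79.2 to 126.8 on LF day 56 arrays and 85.8 to 349.4 on LF day 0 arrays, and that of cartilage was 85.4 to 476.8 on HF day 56 arrays, 103.8 to 352.0 on LF day 56 arrays and 203.1 to 653.0 on LF day 0 arrays. Whether these bear on the granule genes was not tested.

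In 5 lists of other cell types the median rho was 0.37 or lower, although single genes followed the members. All 6 T cell genes measured of 8 listed stayed under 20 (median rho -0.09), among them Cd3e, Cd8a, Cd4 and Cd5, with sums of 21.8 to 25.0 on HF day 56 arrays, 21.5 to 25.4 on LF day 56 arrays and 21.4 to 25.1 on LF day 0 arrays. All 7 mast cell and basophil genes of 8 stayed under 20 as well (median rho 0.14), among them Tpsb2, Cma1, Cpa3 and Mcpt4, and Mcpt8 had the highest rho, 0.59. In the B lineage list, 7 of 10 were measured, and all but Ebf1, which was above 20 on every array, stayed under 20 (median rho 0.37), among them Blnk, Vpreb1 and Cd79b, the last with a rho of 0.61. Monocyte and macrophage genes, 9 of 10 measured, had a median rho of 0.31, with F13a1 at 0.61 and Cd68 at 0.55, and Cd163, Mrc1, F13a1 and Csf1r exceeded 20 on all 30 arrays. Of 5 eosinophil genes measured of 8, Prg2, the major basic protein, was the only one above 20, on 2 upper arrays, with a maximum of 119.6 and a rho of 0.74, while Epx, Siglecf and Il5ra stayed under 20 (median rho of the 5, 0.047). None of the genes in these 5 lists passed in any comparison.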

How the data were processed

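RNA of 30 quadriceps muscles, 1 per mouse, was biotin-labelled and hybridised to Affymetrix arrays, per the labels' protocols. The deposited intensity values are linear, 1 for each gene on each array, and were computed by the authors using GCRMA (no version given), per the submitters' processing notes. Values ran from 1.2 to 30599. The table has 16539 entries, of which 64 control probe sets were dropped. A single symbol was given for 15780 of the other 16475, and 695 had none. Gene numbers of 15752 entries matched RefSeq names, and 0 symbols changed. No 2 arrays were identical.

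The log2 intensity (pseudocount 0) was tested with limma 3.58.1 in R 4.3.3, with lmFit and eBayes without trend, all 30 arrays in 1 fit and group as the only factor. Residual degrees of freedom were 27 and prior ones 3.97. Benjamini-Hochberg adjustment of the two-sided p-values covered 16475 entries in each comparison, and the threshold was 0.05. The script was tested on simulated data. Correlations, ranges and motif searches used Python 3.11.15 with numpy 2.4.6, pandas 2.3.3 and scipy 1.17.1, and figures used matplotlib 3.10.9. Promoters were taken from RefSeq on GRCm38.p6.

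The members and the gene lists were chosen with earlier results of these data known. All 10 members are named. Also named are the 15 genes of highest rho among entries above 100 on at least 5 arrays, up to 4 of each list by maximum intensity, and all transcription factors measured. Ms4a3, Cd177, Cybb, Mmp9, Fpr2, Cxcr2, Csf3r, Hdc, Adam8, Slc11a1, Tpx2, Phex, Sp7, Matn3, Mcpt8, Cd68, Myh7 and Myl3 fall outside that rule and were picked after their values were seen. The 15 lists of other genes held 161 symbols, of which 133 were measured.

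Groups came from the labels, which give each mouse its own number. Replicate numbers recur between groups, but the deviations of same-numbered arrays did not go together: r exceeded 0.1 in 3, 2 and 3 of 10 pairs in the 3 comparisons, so arrays were not paired. Alternatives were other pseudocounts, filters, normalization, variance settings, the labelling set, a replicate block and each array left out in turn. For arrays, the number of mice and the signal over background limit the precision.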

Additional observations from a re-analysis of the deposited data

Results flagged for a closer look

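For the 10 genes in 3 groups, 30 sets of 10 arrays were examined for a single array far from the rest on the log2 scale, and 5 had one past Dixon's 95% critical value. For normally distributed values chance gives about 1 in 20 such sets. Each group held arrays on both sides of the S100a8 gap, so that rate need not hold here. The genes of an array are also not independent. All 5 were the highest array of their group. Of these, 3 were on HF day 56 replicate 2: Ltf at 519.7 with the next array at 40.1, Elane at 67.2 with the next at 13.8, and Prtn3 at 81.6 with the next at 21.7. The other 2 were on LF day 56 replicate 9: Mpo at 151.1 with the next array at 16.8, and Ctsg at 14.5 with the next at 7.2. The second array held only 841.2 in S100a8, which was not the highest of its group, and the first held 4031.3, which was the highest of all 30.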

How the results depend on the processing

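For the 10 granule genes, 0 passed in any of the 3 comparisons under any alternative run, with lowest adjusted p-values of 0.870 (HF day 56 minus LF day 56), 0.0522 (LF day 56 minus LF day 0) and 0.300 (HF day 56 minus LF day 0). With 1 array left out, the median difference over the genes ran from 0.52 to 1.36 for HF day 56 minus LF day 56, from -2.31 to -1.53 for LF day 56 minus LF day 0 and from -1.37 to -0.41 for HF day 56 minus LF day 0. A pseudocount of 16 made the medians smaller, at 0.66, -1.24 and -0.58 in the same order, against 1.08, -1.95 and -0.80. The size of these differences thus depends on values near the lowest signal. In the labelling set of 9 arrays the median for LF day 56 minus LF day 0 was -4.79.

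Counts over all entries moved more. For HF day 56 minus LF day 56 (4 entries) they were 0 with only those 2 groups in the fit, 7 with a pseudocount of 16, 8 with a filter on low values, 8 with a trended robust variance, 0 in each labelling set, and 2 to 15 with 1 array left out. For LF day 56 minus LF day 0 (140) they were 214 with the labelling set as a factor, 47 in the set of 21 and 11 in the set of 9, and 102 to 155 with 1 array left out. For HF day 56 minus LF day 0 (262) they were 134 in the set of 21, 0 in the set of 9 and 214 to 271 with 1 array left out. With the replicate block the counts were 1 for HF day 56 minus LF day 56, 104 for LF day 56 minus LF day 0 and 209 for HF day 56 minus LF day 0, and it changed no call of a granule gene.

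Directions turned in these cases, none of them past the test. For LF day 56 minus LF day 0 in the set of 21, Mpo was 0.042, Prtn3 0.11 and Ctsg 0.12. For HF day 56 minus LF day 0 in the set of 21, S100a8 was 0.0641, Camp 0.12, Elane 0.51 and Mpo 0.73; in the set of 9, Prtn3 was -1.05 and Ctsg -0.67; with a pseudocount of 16, Elane was 0.0094. With 1 array left out the same comparison turned in 20 of 200 values, all in 4 genes: Elane ran from -0.46 to 0.15, Mpo from -0.77 to 0.0368, Prtn3 from -0.27 to 0.23 and Ctsg from -0.15 to 0.18. The cause was not tested. The median r above the S100a8 gap was 0.75 to 0.87 under 6 alternatives and 0.59 without the 3 arrays highest in S100a8, chosen after seeing the data. Signal near the lowest values of an array limits what can be said of Elane, Prtn3 and Ctsg.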
